A study of Sus scrofa domesticus with 11 samples.

Results

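The mitoribosomal protein genes are the nuclear genes whose deposited symbol begins with MRPL or MRPS followed by a digit. The rule found 65 such genes, 39 MRPL and 26 MRPS, among the 22029 genes of the deposited table. The symbols do not map fully onto the subunits: in structures of the mammalian mitoribosome the products of MRPS30 and MRPS18A sit in the large subunit, and MRPS36 is now known as a component of the alpha-ketoglutarate dehydrogenase complex. With those assignments there were 41 large subunit genes, 23 small subunit genes and 1 gene, MRPS36, in neither. They were read in liver RNA of Yorkshire piglets, described in the series title as preterm and as receiving parenteral nutrition, that is, nutrients given into a vein. All livers were taken on day of life 15. One group, with 5 libraries, had received SEFA-6179, a compound given under a code name, at 48 mg/kg. The other, with 6 libraries, had received MCT, the vehicle control, at an equal volume of 3 ml/kg. The sources used here do not give sex, litter or sequencing batch. Each library was taken as 1 animal, and if some shared an animal the p-values would measure technical spread.

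The mitoribosome is the ribosome inside mitochondria. It translates the few mRNAs of the mitochondrial genome, all of which encode subunits of the respiratory chain and of ATP synthase. Its rRNAs come from the mitochondrial genome, whereas its proteins are encoded in the nucleus, made in the cytosol and imported. Many of these proteins have a counterpart in bacterial ribosomes, and the others are specific to mitochondria. Liver is rich in mitochondria, and hepatocytes use them for fatty acid oxidation, ketone body synthesis and the urea cycle.

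Total counts per library ran from 16821201 to 19215097 in SEFA-6179 libraries and from 15974977 to 23416071 in MCT libraries. The 65 genes together took between 30092 and 37481 counts per library with SEFA-6179 and between 31232 and 40218 with MCT. A pair of libraries stood apart in the markers of other cells. The summed level of 10 macrophage markers was lowest in SEFA-6179 replicate 4, at 63.7 CPM, and the other SEFA-6179 libraries spanned 1088 to 2366 CPM. Among MCT libraries, replicate 5 was lowest at 223 CPM and the others spanned 478 to 1375 CPM. CPM is the count scaled to library size after TMM normalisation. No macrophage marker averaged under 0.1 CPM over the libraries. These same libraries had the highest values of many mitoribosomal genes: of the 63 genes tested, SEFA-6179 replicate 4 held the highest value for 19 and MCT replicate 5 for 24. The lowest value lay in MCT replicate 2 for 31 of the 63. Counts that rest on these libraries are given below with and without them. In bulk liver RNA, fewer cells of a type and less RNA per cell cannot be told apart. The liver label was met by 12 rows of hepatocyte markers such as ALB, whose sum ran from 106696 to 211179 CPM in SEFA-6179 livers and from 84104 to 193051 CPM in MCT livers.

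Per length, the mitoribosomal genes spanned a wide range. FPKM, which divides the count by the gene length and by library depth, was used for levels between genes. Mean FPKM over all libraries ran from 0.00397 for MRPL10 to 91.3 for MRPL41, with a median of 12.6. The 3 most abundant mRNAs encode mitochondria-specific proteins of the large subunit. MRPL41 was at 85.1 ± 18.3 FPKM (SD, n = 5) with SEFA-6179 and 96.5 ± 33.2 FPKM (SD, n = 6) with MCT. MRPL57 was at 81.3 ± 13.8 FPKM with SEFA-6179 and 80.3 ± 41.5 FPKM with MCT. MRPL38, of the central protuberance, was at 74.3 ± 7.73 FPKM with SEFA-6179 and 84.3 ± 20.7 FPKM with MCT. These 3 neighbours in the order of levels did not differ beyond their spread. MRPL12, the L7/L12 stalk protein that also binds the mitochondrial RNA polymerase, followed at 66.4 ± 11.7 FPKM with SEFA-6179 and 65.6 ± 16.1 FPKM with MCT. The highest small subunit genes were MRPS15, MRPS26 and MRPS18B, at mean FPKM of 51.5, 39.7 and 35.9 over all libraries. The top genes exchanged places between libraries: among the 65 genes MRPL41 and MRPL57 ranked between 1 and 4, MRPL38 between 1 and 5 and MRPL12 between 2 and 7. MRPS15 ranked between 5 and 7 and MRPS26 between 6 and 9.

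The 4 genes lowest per length had few counts. MRPL10, a stalk base protein, had no count in 9 libraries, 1 count in SEFA-6179 replicate 3 and 2 counts in MCT replicate 6. A count of 0 allows up to 3 counts, which is at most 0.185 CPM in any of these libraries by counting error alone. This limit covers reads that were counted: whether reads of MRPL10, MRPS16 or MRPS7 were lost to the counting rules where genes overlap was not tested. MRPS16, of the small subunit body, had 5 to 11 counts with SEFA-6179 and 3 to 16 with MCT. Both failed the filter on low counts, so no fold change is given for them. MRPL28 averaged 0.270 FPKM and MRPS7, the counterpart of bacterial S7, 1.03 FPKM. In the deposited annotation MRPL10 overlaps OSBPL7 on the same strand, MRPS16 overlaps DNAJC9 on the same strand, and MRPS7 overlaps MIF4GD and GGA3 on the opposite strand. In all, 31 of the 65 genes overlap another gene of the table, 25 of them on the opposite strand. These overlaps are of whole deposited spans, from start to end, and overlap of exons was not tested. The sources used here do not say whether counting used strand, so whether reads of such pairs were told apart is not known. The deposited span of MRPL12, from 1067875 to 1203786, also overlaps ACTG1 and P4HB, whereas its deposited gene length is 845 bases. Mean counts were 24000 for ACTG1 and 31500 for P4HB, against 1060 for MRPL12. FPKM was lower for longer genes over the 63 tested genes (Spearman's rho = -0.78, across genes, which share libraries and the length in the FPKM formula, so it is a description).

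**Figure D1:**
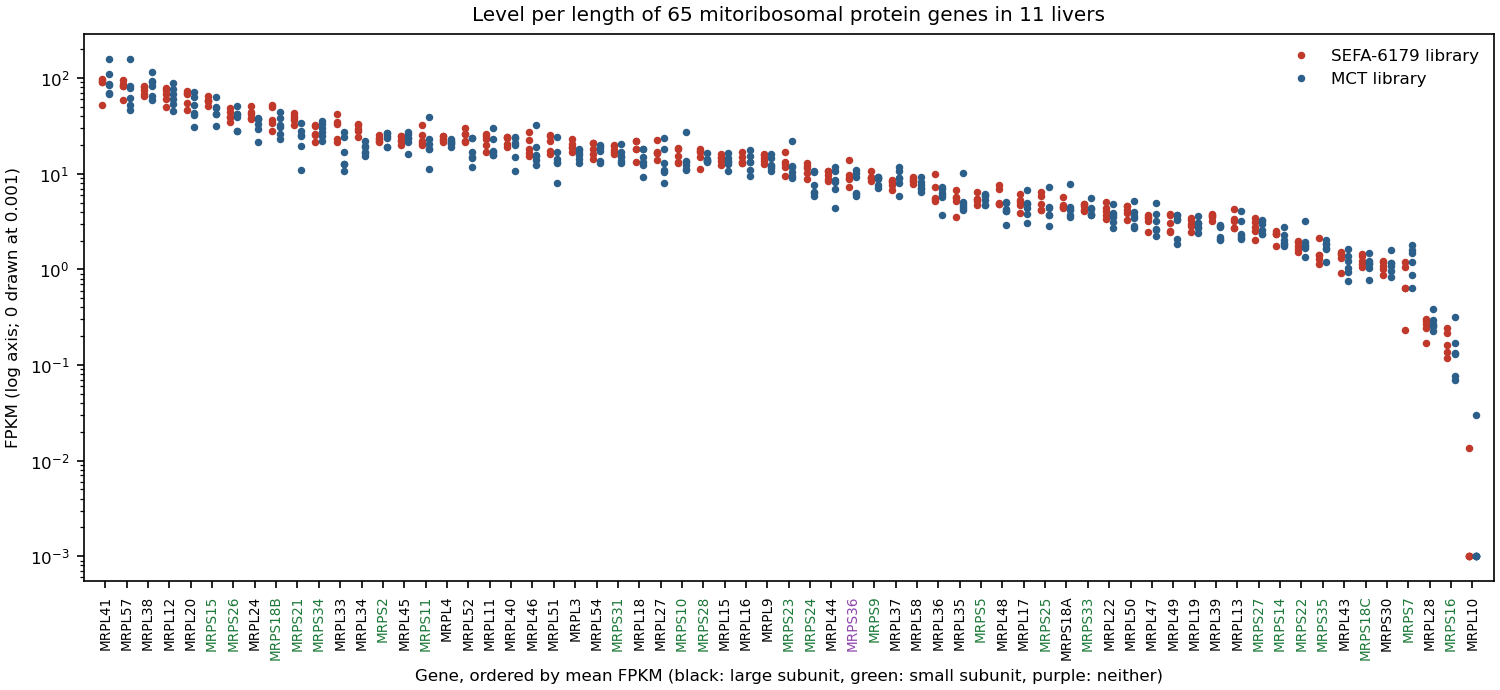
Level per length of the 65 mitoribosomal protein genes, with genes on the x axis ordered by mean FPKM and FPKM on a logarithmic y axis. Each point is a library, SEFA-6179 left of MCT for each gene, with values of 0 drawn at the bottom. Mean levels run from 91.3 FPKM for MRPL41 to 0.00397 FPKM for MRPL10, and the points of both groups overlap for most genes.

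The comparison of SEFA-6179 with MCT asks how the compound altered liver transcription. Most mitoribosomal genes had somewhat higher mRNA levels with SEFA-6179, by small amounts, and none passed the test over all genes. Of the 63 tested genes 51 had a log2 fold change above 0, or 81%, where 49.8% of all 13671 tested genes did. The median log2 fold change was 0.14 in the family and -0.0015 over all tested genes. In edgeR quasi-likelihood tests, after Benjamini-Hochberg adjustment over all genes, 0 of the 63 were past the 0.05 threshold, where 0.219% of all tested genes were, 0.117% higher and 0.102% lower. At an unadjusted p below 0.05 there were 10 of the 63, or 15.9%, on the higher side, where 5.24% of all tested genes were, and 0 on the lower side, where 5.52% were. DESeq2 called 2 members, both higher. It called 2.06% of its genes in all and 0.935% higher. Limma with library weights called 1 member, MRPL34, and 0.227% of all tested genes on the higher side.

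Both DESeq2 calls, MRPL34 and MRPL39, encode large subunit proteins. The same 2 genes had an adjusted p below 0.05 in the authors' deposited table, at 0.00291 and 0.0476, where 0.527% of its genes were called higher. That table rests on the same libraries, so it adds no separate evidence. MRPL34 and MRPL39 were also the 2 of the 63 in which every SEFA-6179 library lay above every MCT library. That pattern was found in 0.673% of all tested genes. No mitoribosomal gene showed the opposite pattern, found in 0.819% of all tested genes. In 21 of the 63 genes all 5 SEFA-6179 libraries lay above the MCT median, or 33.3%, where 9.99% of all tested genes did. In 3 of the 63 none of the 5 did, or 4.76%, where 12% of all tested genes had none.

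**Figure D2:**
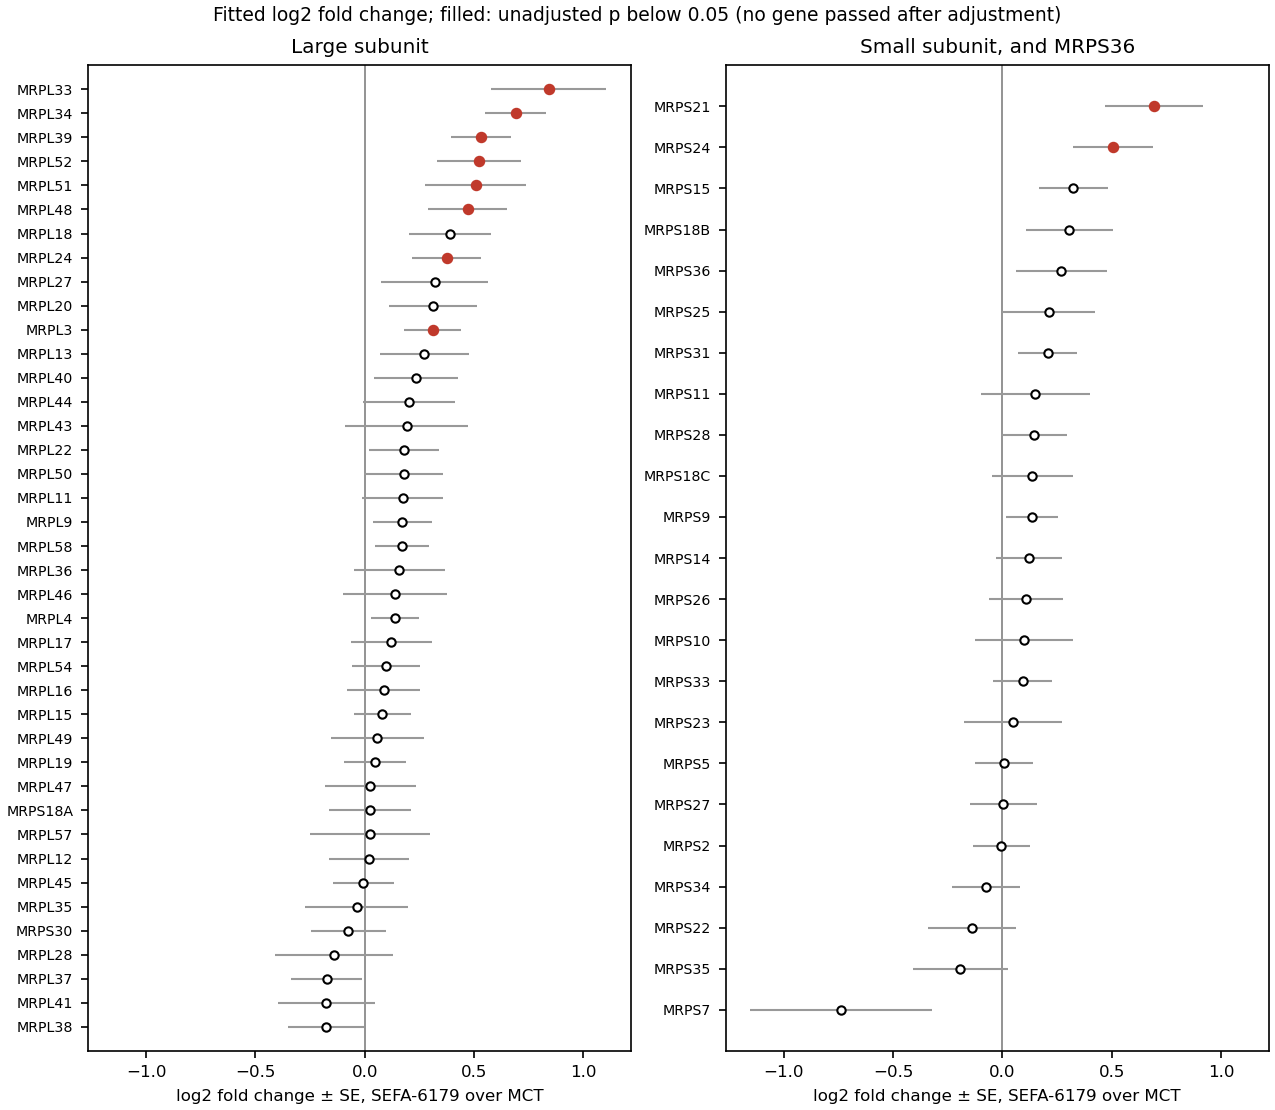
Fitted log2 fold change of SEFA-6179 over MCT for the 63 tested genes, ± SE, with large subunit genes in the left panel and small subunit genes and MRPS36 in the right. Filled points have an unadjusted p below 0.05, and no gene passed after adjustment. Points right of the zero line number 51, and the values run from 0.84 for MRPL33 to -0.74 for MRPS7.

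Among the large subunit genes, MRPL34 had the lowest p. It is the counterpart of bacterial L34, a small protein of the large subunit, and lies on chromosome 2 from 60377905 to 60378874 in the deposited coordinates. Its level was 19.3, 22.2, 25.9, 26.4 and 23.1 CPM in SEFA-6179 replicates 1 to 5, against a lowest, median and highest MCT value of 12.3, 14.1 and 17.7 CPM. The groups did not overlap. The mean was 23.4 ± 2.91 CPM (SD, n = 5) with SEFA-6179, against 14.5 ± 2.02 CPM (SD, n = 6) with MCT. The log2 fold change was 0.69 ± 0.14 (SE). EdgeR gave an adjusted p of 0.0655 and DESeq2 one of 0.00108, and it ran from 0.00108 to 0.181 over the alternatives. The edgeR test passed the threshold without MCT replicate 6, at an adjusted p of 0.0438. MRPL34 overlaps DDA1, on the same strand, along its whole deposited span, with mean counts of 342 for MRPL34 and 98.7 for DDA1.

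MRPL39 encodes a mitochondria-specific protein near the exit of the peptide tunnel, and lies on chromosome 13 from 189148714 to 189167880. Its SEFA-6179 values were 26.2, 31.7, 31.0, 29.6 and 29.2 CPM, against 16.7, 20.5 and 24.0 CPM as the lowest, median and highest of MCT. Here too the groups did not overlap, and the SEFA-6179 libraries lay close together, at 29.5 ± 2.11 CPM (SD, n = 5) against 20.4 ± 3.54 CPM (SD, n = 6) in MCT libraries. The log2 fold change was 0.53 ± 0.14 (SE), with an adjusted p of 0.150 by edgeR and 0.0292 by DESeq2, and a range of 0.0292 to 0.308 over the alternatives. MRPL39 overlaps JAM2 on the opposite strand, with mean counts of 455 for MRPL39 and 57 for JAM2.

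MRPL33, the counterpart of bacterial L33, had the highest log2 fold change of the family, 0.84 ± 0.26 (SE), with an edgeR adjusted p of 0.239. Its SEFA-6179 values were 11.5, 12.4, 18.5, 22.6 and 17.8 CPM, against 5.76, 7.91 and 14.6 CPM as the lowest, median and highest of MCT. The groups overlapped: replicates 1 and 2 of SEFA-6179 lay below the top MCT library. MRPL52, a mitochondria-specific protein, averaged 23.5 ± 3.32 CPM in SEFA-6179 livers and 16.4 ± 4.71 CPM in MCT livers, and 3 of 5 SEFA-6179 values exceeded the top MCT value. MRPL51, also specific to mitochondria, averaged 21.1 ± 4.29 CPM in SEFA-6179 livers and 14.9 ± 5.27 CPM in MCT livers.

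MRPL48, a protein of the central protuberance, averaged 19.8 ± 4.69 CPM in SEFA-6179 livers and 14.3 ± 2.56 CPM in MCT livers. Its SEFA-6179 values were 16.2, 16.3 and 16.8 CPM in replicates 1, 3 and 4 and 26.2 and 23.4 CPM in replicates 2 and 5. MRPL24, which lines the exit of the peptide tunnel, averaged 70.4 ± 9.10 CPM in SEFA-6179 livers and 54.3 ± 10.5 CPM in MCT livers. MRPL3, which reaches towards the peptidyl transferase centre, averaged 36.7 ± 4.26 CPM in SEFA-6179 livers and 29.6 ± 3.85 CPM in MCT livers, and 4 of 5 SEFA-6179 values exceeded the top MCT value. The log2 fold changes of MRPL52, MRPL51, MRPL48, MRPL24 and MRPL3 lay between 0.31 and 0.52, with edgeR adjusted p between 0.313 and 0.449. In the deposited coordinates MRPL24 overlaps HDGF on the same strand, MRPL52 overlaps SLC7A7 and MRPL51 overlaps NCAPD2, both on the opposite strand.

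The 4 large subunit genes highest per length had log2 fold changes near or below 0, whereas the next, MRPL20, had one of 0.31 ± 0.20 (SE; edgeR adjusted p = 0.617). MRPL38 was at 130, 104, 108, 119 and 130 CPM with SEFA-6179, against a lowest, median and highest MCT value of 93.7, 137 and 182 CPM. All 5 SEFA-6179 values lay below the MCT median but inside the MCT range, and the log2 fold change was -0.18 ± 0.17 (SE; edgeR adjusted p = 0.763). MRPL41 had one of -0.18 ± 0.22, MRPL57 one of 0.02 ± 0.27 and MRPL12 one of 0.02 ± 0.18. MRPL57 and MRPL12 had log2 fold changes below 0 after a correction for gene length, at -0.088 and -0.12, and MRPL41 was above 0 without MCT replicate 5, at 0.014. MRPL58, a peptidyl-tRNA hydrolase that rescues stalled mitoribosomes, averaged 38.3 ± 2.63 CPM in SEFA-6179 livers and 34.0 ± 4.6 CPM in MCT livers. MRPS30 and MRPS18A, large subunit members in spite of their symbols, had log2 fold changes of -0.075 ± 0.17 and 0.02 ± 0.19. The rarely counted MRPL28 had one of -0.14 ± 0.27.

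In the small subunit, MRPS21 had the lowest p. It is the counterpart of bacterial S21. Its SEFA-6179 values were 16.9, 22.7, 20.1, 20.7 and 18.9 CPM, against 5.67, 13.0 and 17.6 CPM as the lowest, median and highest of MCT. Replicate 1 of SEFA-6179 lay below the top MCT library and the other 4 lay above all MCT libraries. The log2 fold change was 0.69 ± 0.23 (SE; edgeR adjusted p = 0.263). MRPS24, the counterpart of bacterial S3 on the side where mRNA enters, was at 23.5, 27.3, 30.8, 34.8 and 32.1 CPM with SEFA-6179, against 15.5, 18.7 and 28.4 CPM as the lowest, median and highest of MCT. Its log2 fold change was 0.50 ± 0.18 (SE; edgeR adjusted p = 0.313).

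The next small subunit genes by p stayed above an unadjusted 0.05. MRPS15, the counterpart of bacterial S15, averaged 59.2 ± 5.21 CPM in SEFA-6179 livers and 47.3 ± 10.5 CPM in MCT livers. MRPS18B averaged 57.8 ± 15.1 CPM in SEFA-6179 livers and 46.7 ± 11.3 CPM in MCT livers, with a log2 fold change of 0.31 ± 0.20 (SE). MRPS18C, the counterpart of bacterial S18, had a log2 fold change of 0.14 ± 0.19. MRPS31, MRPS25 and MRPS9 had log2 fold changes of 0.21 ± 0.14, 0.21 ± 0.21 and 0.14 ± 0.12, and MRPS26 had one of 0.11 ± 0.17. MRPS36, in neither subunit, averaged 21.2 ± 5.44 CPM in SEFA-6179 livers and 17.6 ± 4.85 CPM in MCT livers, a log2 fold change of 0.27 ± 0.21.

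MRPS7 had the lowest log2 fold change of the family, -0.74 ± 0.42 (SE; edgeR adjusted p = 0.547). Its SEFA-6179 values were 0.341, 1.56, 0.930, 1.73 and 0.924 CPM, against 0.940, 1.93 and 2.63 CPM as the lowest, median and highest of MCT. These rest on 6 to 29 counts per library with SEFA-6179 and 19 to 46 with MCT. All 5 SEFA-6179 values lay below the MCT median and the groups overlapped.

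**Figure D3:**
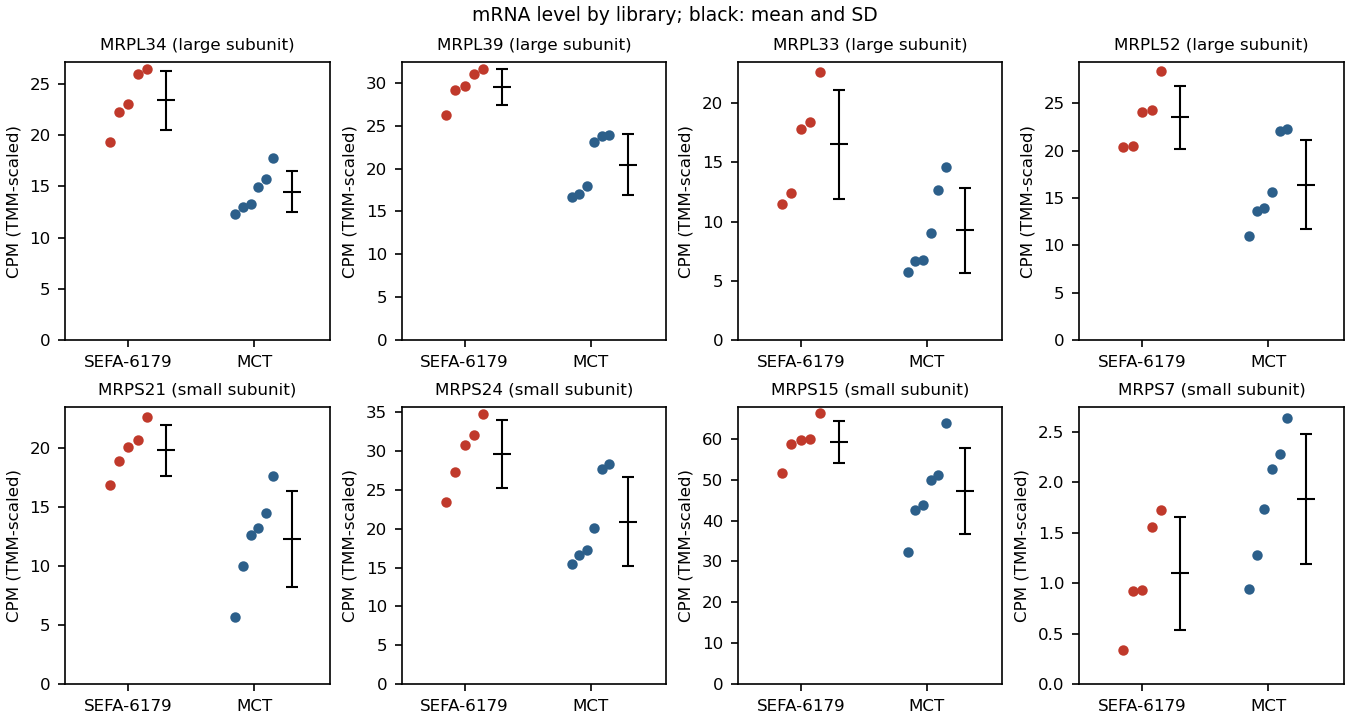
Level of 8 mitoribosomal genes in each library, in TMM-scaled CPM on axes that start at 0, with SEFA-6179 left of MCT. Points are libraries, sorted by value within a group, and black marks are the mean and SD. The groups are apart for MRPL34 and MRPL39 and overlap for the other 6 genes.

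Sorted by subunit, 33 of 40 tested large subunit genes and 17 of 22 tested small subunit genes had a log2 fold change above 0. The medians were 0.16 for the large and 0.11 for the small subunit, a difference of 0.050. Over the alternatives that difference stayed above 0. It ran between 0.023, without SEFA-6179 replicate 1, and 0.077, by limma, and was 0.026 without MCT replicate 4. Within ranges of gene length, given below, the small subunit median was the higher one in the shortest and the longest range. Of the 10 genes at an unadjusted p below 0.05, 8 were of the large and 2 of the small subunit, which is 20% and 9.09% of the genes tested in each. Taking the subunit from the symbol instead gave medians of 0.17 for MRPL and 0.11 for MRPS genes. By origin, the counterparts of bacterial proteins had 19 of 21 above 0 in the large and 10 of 12 in the small subunit, and the mitochondria-specific ones 14 of 19 and 7 of 10. By place in the large subunit, 6 of 7 genes at the tunnel exit, 5 of 6 of the central protuberance and both tested stalk genes lay above 0, with medians of 0.18, 0.20 and 0.097, of which the stalk median was -0.018 after the correction for gene length. These counts describe the family and carry no test of one class against another.

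The score of a subunit is the mean log2 CPM of its tested genes minus their MCT mean. The large subunit score was 0.044, 0.130, 0.219, 0.379 and 0.254 in SEFA-6179 replicates 1 to 5. In MCT replicates 1 to 6 it was -0.039, -0.283, -0.083, -0.066, 0.370 and 0.10. The small subunit score was -0.109, 0.125, 0.123, 0.318 and 0.115 with SEFA-6179, and -0.031, -0.253, -0.124, -0.053, 0.334 and 0.126 with MCT. For both subunits SEFA-6179 replicate 4 and MCT replicate 5 were the highest libraries and MCT replicate 2 the lowest, and the groups overlapped.

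The large score exceeded the small one in all 5 SEFA-6179 libraries, by 0.0047 to 0.153, while in MCT the difference ran from -0.030 to 0.041. That difference averaged 0.091 ± 0.060 (SD, n = 5) with SEFA-6179, and its MCT mean is 0 by construction, with an SD of 0.031. Each gene counts alike in these scores, and the small score includes the rarely counted MRPS7, with a log2 fold change of -0.74. MRPS7 had 6 counts in SEFA-6179 replicate 1, the library with the difference of 0.153. The part of MRPS7 in the difference was not tested. Weighted by abundance the direction was the opposite, and the groups overlapped: the summed FPKM of large over small subunit genes was 2.30 ± 0.10 (SD, n = 5) with SEFA-6179 and 2.40 ± 0.095 (SD, n = 6) with MCT. In that ratio MRPL41, MRPL57 and MRPL38 carry the most weight. Summed FPKM was 827 ± 76.1 with SEFA-6179 and 755 ± 161 with MCT for the large subunit. For the small subunit it was 360 ± 37.7 with SEFA-6179 and 313 ± 60.2 with MCT. The whole family took 1923 ± 157 CPM in SEFA-6179 livers and 1752 ± 290 CPM in MCT livers, and these sums overlapped too.

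**Figure D4:**
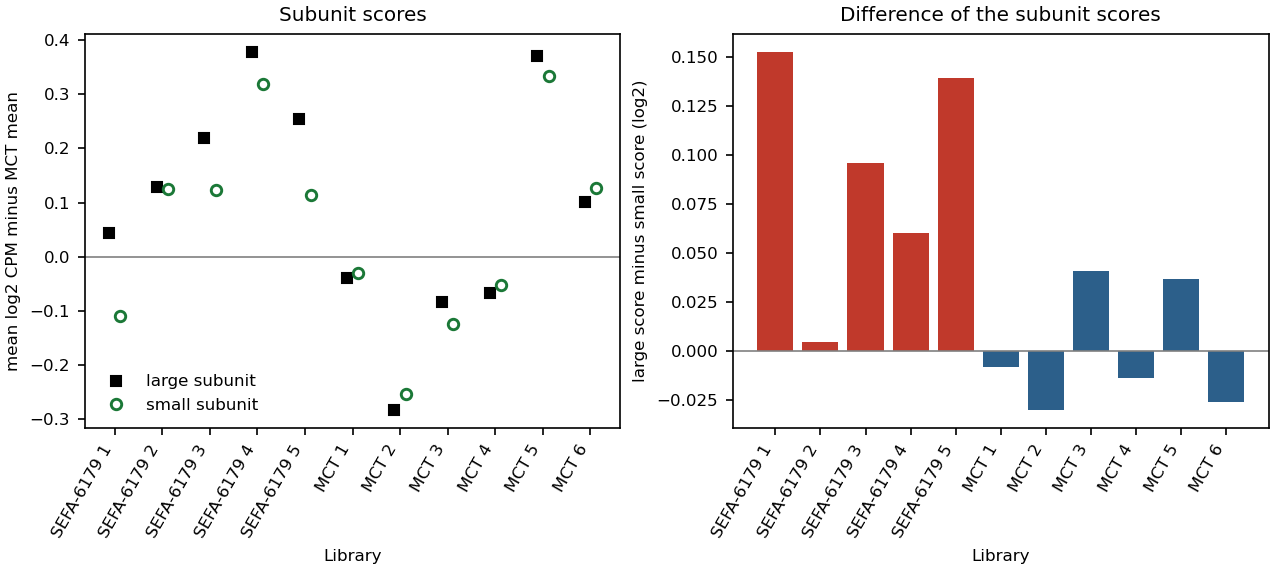
Left, large (squares) and small (circles) subunit scores in each library, as mean log2 CPM minus the MCT mean. Right, the large minus the small score in each library, SEFA-6179 in red and MCT in blue. SEFA-6179 replicate 4 and MCT replicate 5 have the highest scores, and the difference runs from 0.0047 to 0.153 in SEFA-6179 and from -0.030 to 0.041 in MCT.

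Gene length was considered beside the subunits, as short genes as a whole leaned towards SEFA-6179. Over all 513 tested genes under 1000 bases the median log2 fold change was 0.16, and over the 7509 genes of 4000 bases or more it was -0.012. Mitoribosomal genes are short, with a median deposited length of 1887 bases against 4382 over all tested genes. Their median log2 fold change was 0.41 for 10 genes under 1000 bases, 0.16 for 22 genes of 1000 up to 2000 bases, 0.14 for 14 genes of 2000 up to 4000 bases and 0.094 for 17 genes of 4000 bases or more. In each of these 4 ranges the median of the family lay above that of all tested genes, which was 0.16, 0.058, -0.011 and -0.012. By subunit, the 8 large subunit genes under 1000 bases had a median of 0.41 and the 2 small subunit genes one of 0.42. From 1000 up to 2000 bases the medians were 0.19 for 13 large and 0.11 for 9 small subunit genes. From 2000 up to 4000 bases they were 0.15 for 8 large and 0.0070 for 5 small subunit genes. At 4000 bases or more they were 0.058 for 11 large and 0.11 for 6 small subunit genes. Over the 63 genes, length and log2 fold change had a Spearman's rho of -0.29, a description across genes that share libraries. MRPL33, MRPL34, MRPL52, MRPL51 and MRPS21, at 513 to 989 bases, are among the short ones, whereas MRPL39 is given a length of 8198 bases, MRPL48 one of 3359 and MRPS24 one of 2633.

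The slope of log2 CPM deviation on log2 gene length ran from -0.049 to 0.032 in SEFA-6179 libraries and from -0.110 to 0.104 in MCT libraries. The steepest negative slope was that of MCT replicate 5, whose scores were high, and the steepest positive one that of MCT replicate 2, whose scores were the lowest. With a length trend removed from each library, 47 of the 63 genes, or 74.6%, had a log2 fold change above 0, where 50.7% of all tested genes did. The medians were then 0.14 for the large and 0.091 for the small subunit, and rho with length was -0.075. By subunit, 30 of the 40 large and 16 of the 22 small subunit genes were then above 0. Of the 10 genes under 1000 bases, 6 were then above 0, against 9 before, and their median was 0.31, against 0.41 before. In the longer ranges the family medians were then 0.097, 0.15 and 0.11. At an unadjusted p below 0.05, 11 genes, or 17.5%, were higher, where 5.65% of all tested genes were, and 1, MRPL41, was lower. MRPL34 then had a log2 fold change of 0.54 and MRPL39 one of 0.56, with edgeR adjusted p of 0.128 and 0.135.

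**Figure D5:**
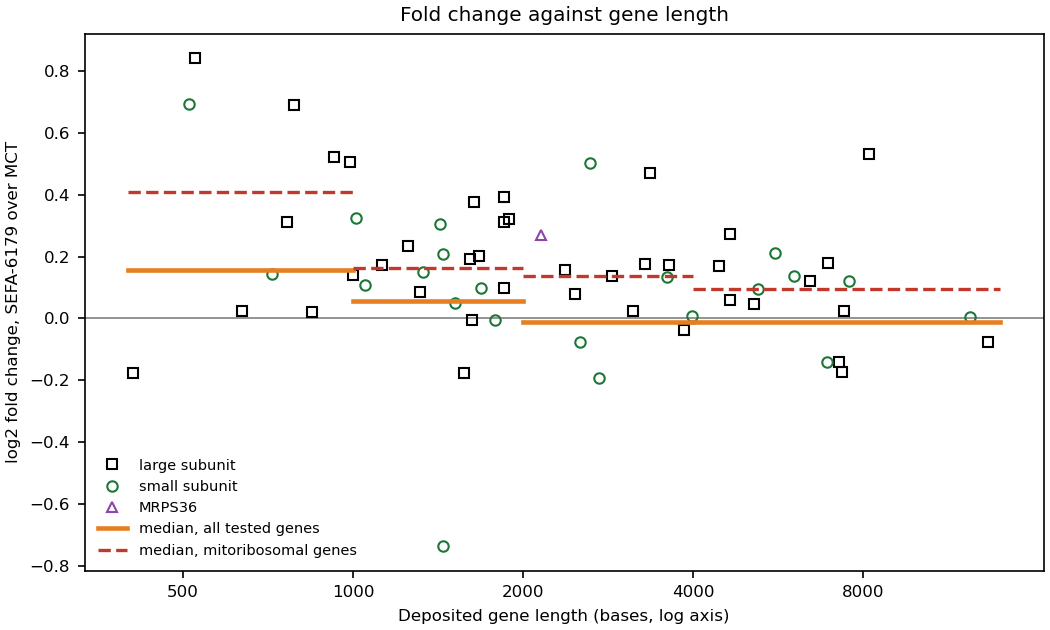
Log2 fold change of SEFA-6179 over MCT against deposited gene length, on a logarithmic x axis, for the 63 tested mitoribosomal genes by subunit. Lines are medians within 4 length ranges, solid for all tested genes and dashed for the family. The dashed line lies above the solid one in each range, at 0.41 against 0.16 for genes under 1000 bases.

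With MCT replicate 5 left out, 54 of the 63 genes lay above 0, where 50.3% of all tested genes did. The medians were then 0.25 for the large and 0.19 for the small subunit. On the higher side 20 of the 63 then had an unadjusted p below 0.05, where 6.48% of all tested genes did. Without SEFA-6179 replicate 5 that count was 6, where 4.24% of all tested genes were on the higher side. Without MCT replicate 2 the medians were 0.11 and 0.074, and without SEFA-6179 replicate 4 they were 0.11 and 0.080. Without MCT replicate 3 the small subunit median was 0.070. With both SEFA-6179 replicate 4 and MCT replicate 5 left out, 54 genes lay above 0, where 51.2% of all tested genes did. The medians were then 0.21 and 0.16. By edgeR 0 mitoribosomal genes passed the threshold in that fit, where only 1 of all 13785 tested genes did. On the higher side 11 then had an unadjusted p below 0.05, where 5.63% of all tested genes did. The part of macrophage content in the scores was not tested.

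Markers of other cells varied too. Of the tested markers 0 of 8 cholangiocyte genes had a log2 fold change above 0, with sums of 52.2 to 100 CPM in SEFA-6179 livers and 70.8 to 174 CPM in MCT livers. All 9 endothelial markers did, with sums of 441 to 868 CPM in SEFA-6179 livers and 370 to 739 CPM in MCT livers. The counts above 0 were 8 of 10 for macrophages, 8 of 12 for hepatocytes, 2 of 9 for stellate cells and fibroblasts, 7 of 7 for T and NK cells, 2 of 2 for B and plasma cells, 1 of 6 for erythroid cells, 3 of 3 for neutrophils and 2 of 8 for cell cycle genes. The erythroid sum went against its count, at 231 to 505 CPM in SEFA-6179 livers and 110 to 433 CPM in MCT livers. All 5 SEFA-6179 sums lay above the MCT median. HBB carried most of that sum, at 337 ± 103 CPM in SEFA-6179 livers and 201 ± 107 CPM in MCT livers (edgeR adjusted p = 0.440). No gene of these lists passed by edgeR, and the lowest adjusted p was 0.0539, for CD24, at 3.39 ± 1.19 CPM in SEFA-6179 livers and 8.43 ± 1.97 CPM in MCT livers. Of the listed markers CD3G and MS4A1 averaged under 0.1 CPM. What these cells contribute to the mitoribosomal values was not tested.

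Lists of other genes of mitochondrial translation had medians closer to 0, apart from the proteases. Assembly factors and rRNA-modifying enzymes of the mitoribosome had 9 of 23 tested genes above 0, with a median log2 fold change of -0.023. Translation factors had 8 of 16, with a median of 0.033. Mitochondrial aminoacyl-tRNA synthetases had 10 of 18, with a median of 0.023, and genes of mitochondrial transcription and RNA processing 4 of 14, with a median of -0.072. Regulators of mitochondrial biogenesis had 4 of 9, with a median of -0.023, and mitochondrial AAA proteases and their partners 3 of 5, with a median of 0.19. No gene of these lists passed by edgeR in either direction. The differences between these lists and the mitoribosomal genes were not tested.

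In each list the gene with the lowest p is named here. CHCHD1, a small subunit protein without an MRPS symbol, averaged 20.4 ± 2.64 CPM in SEFA-6179 livers and 13.7 ± 3.78 CPM in MCT livers (edgeR adjusted p = 0.283). It is one of 5 mitoribosomal proteins with other symbols, of which 2 lay above 0. MALSU1, an assembly factor of the large subunit, averaged 16.5 ± 2.45 CPM in SEFA-6179 livers and 12.5 ± 3.17 CPM in MCT livers (edgeR adjusted p = 0.452). SLIRP, which stabilises mitochondrial mRNAs, averaged 18.2 ± 7.45 CPM in SEFA-6179 livers and 12.2 ± 4.63 CPM in MCT livers (edgeR adjusted p = 0.507). MYC averaged 22.5 ± 7.19 CPM in SEFA-6179 livers and 40.4 ± 13.3 CPM in MCT livers, a log2 fold change of -0.84 ± 0.27 (SE; edgeR adjusted p = 0.248). GATB, of mitochondrial glutaminyl-tRNA formation, TBRG4, of mitochondrial RNA processing, and CLPX, of the mitochondrial Clp protease, had log2 fold changes of -0.40, -0.20 and 0.27 (edgeR adjusted p from 0.508 to 0.670).

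The RNAs that the mitoribosome contains or translates come from the mitochondrial genome. Of 13 protein-coding mitochondrial genes 10 lay above 0 in log2 fold change and the median was 0.23, but after the correction for gene length 6 did and the median was -0.018. The lowest p was that of ND3, a complex I subunit, at 1779 ± 214 CPM in SEFA-6179 livers and 944 ± 383 CPM in MCT livers (edgeR adjusted p = 0.194). The table annotates 2 genes as mitochondrial rRNA. The one of 1571 bases was at 406, 139, 287, 275 and 261 CPM with SEFA-6179, and at 338, 225, 37.3, 161, 2465 and 347 CPM in MCT replicates 1 to 6. The one of 960 bases was at 169 to 345 CPM with SEFA-6179. Its MCT values were 2019 CPM in replicate 5 and 41.4 to 428 CPM elsewhere. For both rRNAs MCT replicate 5 lay far above all other libraries and MCT replicate 3 lowest. Their log2 fold changes were -1.12 ± 0.86 and -1.28 ± 0.76 (SE; edgeR adjusted p = 0.689 and 0.579).

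Set beside families of like kind, the mitoribosomal median of 0.14 was near that of 47 tested cytosolic ribosomal protein genes, at 0.13 with 35 above 0, and below that of 29 complex I subunits, at 0.34 with 27 above 0. On the higher side, 9 cytosolic ribosomal genes, or 19.1%, and 8 complex I subunits, or 27.6%, had an unadjusted edgeR p below 0.05. The share was 15.9% in the mitoribosomal genes and 5.24% over all tested genes. These differences were not tested. The spread between libraries, as edgeR's biological coefficient of variation, had a median of 0.236 in the mitoribosomal genes and 0.274 over all tested genes.

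A further 5 rows have no deposited symbol but are named as mitoribosomal genes by a reference list of identifiers or by the deposited description. They are MRPL14, MRPL2, MRPL30, MRPS6 and MRPS12, with log2 fold changes of 0.42 ± 0.20, 0.20 ± 0.17, 0.13 ± 0.15, -0.15 ± 0.25 and -0.030 ± 0.28 (SE). None passed by edgeR, with adjusted p from 0.465 to 0.985. With these added, a choice made after seeing the data, 54 of 68 tested genes lay above 0, beside 51 of 63 without them. The subunit medians were then 0.17 and 0.10.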

How the data were processed

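The RNA of the 11 libraries came from flash-frozen piglet liver and was extracted with Trizol, per the labels' protocols. Per the submitters' processing notes the tools were featureCounts 1.5.0-p3, HISAT2 2.0.5, DESeq2 1.20.0 and StringTie 1.3.3b, with no role stated. The sources used here give neither genome build nor annotation release. The deposited table holds, per the file headers, the raw count of each gene in each library and the authors' FPKM. It also holds a signal that equals each count divided by a size factor of its library, and 1 comparison with log2 fold change, p-value and adjusted p-value as the authors deposited them. Members, subunit assignments and gene lists were chosen with earlier results of these data known.

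The deposited counts of all 11 libraries were fitted in edgeR 4.0.16 under R 4.3.3 (quasi-likelihood, robust, TMM scaling, a minimum count of 10 in the expression filter), with Benjamini-Hochberg adjustment over 13671 genes and a threshold of 0.05. The SE is the absolute log2 fold change divided by the root of the F statistic. Alternatives used DESeq2 1.42.0 and limma 3.58.1, other filters, other scalings, a loess trend on log2 gene length in each library and each library left out. Tests were tried on simulated data first. All pairs of libraries differed beyond counting noise, with a chi-square of at least 45.7 times its degrees of freedom. Floors cover counting error only, whereas the SDs and SEs also hold the spread between libraries.

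Genes named are those past the threshold and, per subunit, the 8 with the smallest p, the 3 highest and the 2 lowest by FPKM. Genes chosen for their role, those failing the filter and the smallest p of each list of other mitochondrial genes are named too. Outlying libraries, overlap partners and rows named by description were chosen after their values were seen.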

Additional observations from a re-analysis of the deposited data

Results flagged for a closer look

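The values of the named genes were searched for a library far from the others of its group. Of 68 groups of values 5 were found, where chance, at about 5% of groups, would give 3.4. MRPL41 had 21.6 CPM in SEFA-6179 replicate 1, with 37.3 CPM in the nearest SEFA-6179 library. MRPL57 was at 102 CPM in MCT replicate 5, with 53.9 CPM in the nearest MCT library. MRPS18A had 42.2 CPM in SEFA-6179 replicate 5, with 34.7 CPM in the nearest library of its group, and 57.2 CPM in MCT replicate 5, with 34.0 CPM in the nearest. MRPS9 was at 38.9 CPM in SEFA-6179 replicate 4, with 33.2 CPM in the nearest. SEFA-6179 replicate 4 and MCT replicate 5 are the libraries with the lowest macrophage marker sums of their groups (63.7 CPM for the SEFA-6179 one, 223 CPM for the MCT one). The part of these in the values was not tested.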

How the results depend on the processing

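The count of genes past the threshold over the whole table, 30, was 276 by DESeq2, 60 by limma and 1 with SEFA-6179 replicate 4 and MCT replicate 5 left out. With the replicate block, which also leaves out MCT replicate 6, it was 8, against 40 without that library and without the block. Leaving out single libraries gave 0 to 53. It was 0 without SEFA-6179 replicate 5 or MCT replicate 4, where 1184 and 1258 genes had an unadjusted p below 0.05. It was 9 without SEFA-6179 replicate 1, 53 without SEFA-6179 replicate 3, and 1, 9 and 16 without MCT replicates 1, 2 and 3. Mitoribosomal genes past the threshold numbered 2 by DESeq2, 1 by limma and 0 to 1 with single libraries left out. Those at an unadjusted p below 0.05 numbered 16 by limma, 14 under the replicate block, 6 when SEFA-6179 replicate 5 was left out and 20 when MCT replicate 5 was, where 7.59%, 6.13%, 4.24% and 6.48% of all tested genes were on the higher side. Subunit medians and their difference kept their sign in all alternatives, and 46 to 54 genes lay above 0. Single genes changed sign: MRPS30 was at 0.049 with both libraries left out, and MRPL12 at -0.12 with the length trend and -0.061 by limma. MRPL57 was at -0.088 with the length trend. With single libraries left out, MRPL41 ran between -0.25 and 0.014, MRPS30 between -0.15 and 0.046, MRPS18A between -0.049 and 0.23, MRPL12 between -0.067 and 0.13 and MRPL57 between -0.091 and 0.34. The cause was not tested.

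Replicate numbers did not pair the samples: correlations of deviations ran from -0.149 to 0.202 over 5 numbers, and replicate 3 alone correlated best with its own number. Under that block 51 of 63 genes lay above 0. The fewest counts were those of MRPL10, MRPS16, MRPS7, MRPL28 and MRPL43, with means under 50 per library, which limits their precision.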
